A study of Homo sapiens with 2 samples.

Results

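The 10 genes described here encode the sliding clamp of DNA replication, the proteins that load and unload it, and the enzymes that finish Okazaki fragments: PCNA, RFC2, RFC3, RFC4, RFC5, DSCC1, CHTF18, ATAD5, FEN1 and LIG1. They were taken by gene symbol from the 14526 named genes on the arrays, and all 10 were found, each with 1 transcript cluster (the group of probes by which the array reads a gene). Cells of the human gastric cancer line NUGC4 received either a control siRNA or an siRNA against ANO5, which encodes the membrane protein anoctamin 5, each at 20 nmol/l, and RNA of each culture was read on 1 array. Transfection took place 24 h after seeding, and both groups share the cell line, the medium and the transfection reagent. The siRNA against ANO5 was a single product, with no other siRNA to the same gene in the samples analysed here. The question of the study was what ANO5 does in the cell cycle of gastric cancer cells.

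PCNA is a ring that encircles DNA and tethers DNA polymerases and many other proteins to it. A clamp loader, replication factor C (RFC), opens the ring with ATP and closes it on primed DNA. RFC2, RFC3, RFC4 and RFC5 are small subunits shared by all clamp loaders, and a further protein gives each loader its task: RFC1 in the canonical loader, CHTF18 with DSCC1 and CHTF8 in the loader that also serves sister chromatid cohesion, ATAD5 in the complex that takes PCNA off DNA, and RAD17 in the loader of the checkpoint clamp. On the lagging strand, where DNA is made as short Okazaki fragments, FEN1 cuts the displaced flap at each junction and LIG1 seals the nick. Many of these genes are known as targets of the E2F transcription factors, which act at the entry into S phase.

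All values are deposited signals read as log2 values, and each difference is that of the ANO5 siRNA array from the control, negative where the ANO5 siRNA array was lower. With 1 array per group there is no spread between cultures and no error or p-value is given, so each difference compares these 2 RNA samples only. Genes were counted as higher or lower at a difference of at least 1.5-fold or 2-fold. A measured range of 9735 genes held those whose mean over both arrays reached the 33rd percentile of all named genes, 6.05 on the log2 scale. The median difference of the measured genes was 0.07, and their SD, a spread over genes and not over cultures, was 0.94.

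ANO5, the targeted gene, read 6.83 on the control array and 3.67 on the ANO5 siRNA array, a difference of -3.16. On the ANO5 siRNA array 4.68% of clusters read as low as that or lower, and the mean of ANO5 lay below the measured range, so the size of this difference may be limited by background, which was not tested. All 8 epithelial markers were in the measured range, between 7.79 and 17.37 over both arrays. By 1.5-fold or more, CLDN3 was lower (-1.35) and KRT19 (1.02) and CDH1 (0.61) were higher. Their part in the results below was not tested. Of 16 markers of fibroblasts, blood, endothelium, muscle and nerve, 10 were in the table, between 3.49 and 8.03, and none of the 10 differed by 1.5-fold. The leukocyte marker PTPRC read 3.68 and 3.49, near the 5th percentile of each array (3.75 for the control and 3.71 for the ANO5 siRNA). Of 11 housekeeping genes, 9 lay within 1.5-fold, and B2M and SDHA were higher by 0.87 each.

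RefSeq's promoter windows on GRCh38.p14, from 250 bases before to 50 bases after a gene's start, were read for 8 of the 10 genes, 7 of them with 1 window and PCNA with 2. The promoters of ATAD5 and DSCC1 were not analysed here. Both strands were searched for an E2F motif in its 4 forms (TTTCCCGC, TTTCGCGC, TTTGCCGC and TTTGGCGC), for the CCAAT box (CCAAT), for the GC box that SP1 binds (GGGCGG) and for the CHR element of late cell cycle genes (TTTGAA). An E2F match was found for 3 of the 8 genes, PCNA, RFC3 and LIG1, against 6.82% of the measured genes and 3.99% of all 27305 genes with a window. The 250 bases before the start are given for these 3 genes because they hold the match, and for CHTF18 because it was the 1 gene that hardly differed between the arrays. Capitals mark every match to the E2F motif, the CCAAT box or the GC box on either strand.
PCNA (chr20:5126623-5126872, minus strand, GRCh38.p14): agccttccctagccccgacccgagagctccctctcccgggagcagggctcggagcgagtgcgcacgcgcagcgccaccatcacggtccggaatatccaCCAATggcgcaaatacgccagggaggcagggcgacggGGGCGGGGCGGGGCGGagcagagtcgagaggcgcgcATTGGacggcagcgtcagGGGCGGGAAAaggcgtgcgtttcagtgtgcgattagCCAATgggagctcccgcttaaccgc
RFC3 (chr13:33817899-33818148, plus strand, GRCh38.p14): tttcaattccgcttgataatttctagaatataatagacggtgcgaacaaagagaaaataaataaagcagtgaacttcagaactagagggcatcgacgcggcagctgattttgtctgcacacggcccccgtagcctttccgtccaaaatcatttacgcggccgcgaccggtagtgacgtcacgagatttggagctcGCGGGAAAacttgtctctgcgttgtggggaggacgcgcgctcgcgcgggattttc
LIG1 (chr19:48170345-48170594, minus strand, GRCh38.p14): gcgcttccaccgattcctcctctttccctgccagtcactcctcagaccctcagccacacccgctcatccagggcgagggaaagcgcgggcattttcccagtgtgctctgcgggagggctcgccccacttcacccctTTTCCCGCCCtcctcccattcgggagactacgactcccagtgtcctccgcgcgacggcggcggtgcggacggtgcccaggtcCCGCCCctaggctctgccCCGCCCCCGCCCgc
CHTF18 (chr16:788370-788619, plus strand, GRCh38.p14): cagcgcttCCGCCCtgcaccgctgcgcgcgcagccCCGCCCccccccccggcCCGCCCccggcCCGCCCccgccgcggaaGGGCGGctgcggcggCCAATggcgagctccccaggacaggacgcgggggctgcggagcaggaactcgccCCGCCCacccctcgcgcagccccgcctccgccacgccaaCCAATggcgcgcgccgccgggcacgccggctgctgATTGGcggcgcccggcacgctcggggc

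PCNA has 2 start sites in the table, and the window of 1 of them, given above, held an E2F match while the other held 0. This match lay from 59 to 52 bases before the start, read on the opposite strand, and overlapped a GC box that runs from 61 to 56. In RFC3 it lay from 55 to 48 bases before the start, also on the opposite strand, and was the only match of the 4 motifs in that window. In LIG1 it lay on the gene's own strand, from 114 to 107 bases before the start, and overlapped a GC box from 110 to 105. All 3 matches have the form TTTCCCGC. The other motifs were no more frequent than among the measured genes. GC boxes stood in the windows of 6 of the 8 genes, against 77.2% of the measured genes, and CCAAT boxes in 3, PCNA, RFC5 and CHTF18, against 44.0%. The CHR letters were found in 0 of the 8, against 13.8% of the measured genes. The FEN1 window held none of the 4 motifs, and the CHTF18 window held 3 CCAAT boxes and 7 GC boxes but no E2F match; 1 of these GC boxes crosses the start and so is not in capitals above. These are matches of letters in 1 window per start site, not measured binding. The genes with an E2F match differed between the arrays by -2.56 (RFC3), -2.35 (LIG1) and -0.85 (PCNA). Those without one differed by -2.54 (FEN1), -2.47 (RFC4), -2.39 (RFC5), -2.14 (RFC2) and -0.13 (CHTF18). The mean of CHTF18 lay below the measured range, and without CHTF18 this set runs from -2.54 to -2.14. Whether the match goes with the size of the difference was not tested.

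The clamp and its partners did not differ by the same amount. Of the 10 genes, 9 were lower by at least 1.5-fold on the ANO5 siRNA array, against 16.6% of all named genes, and the median difference of the 10 was -2.25 (4.74-fold lower). The 9 were those in the measured range, in which 20.1% of genes were lower by 1.5-fold, and CHTF18 was the gene below it. LIG1 was in that range only through its control value, so the share of genes in the range that were lower is given as a description. At 2-fold, 8 genes were lower, against 11.3% of the measured genes, and PCNA and CHTF18 were not. None of the 10 was higher, while 23.2% of the measured genes were higher by at least 1.5-fold.

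**Figure D1:**
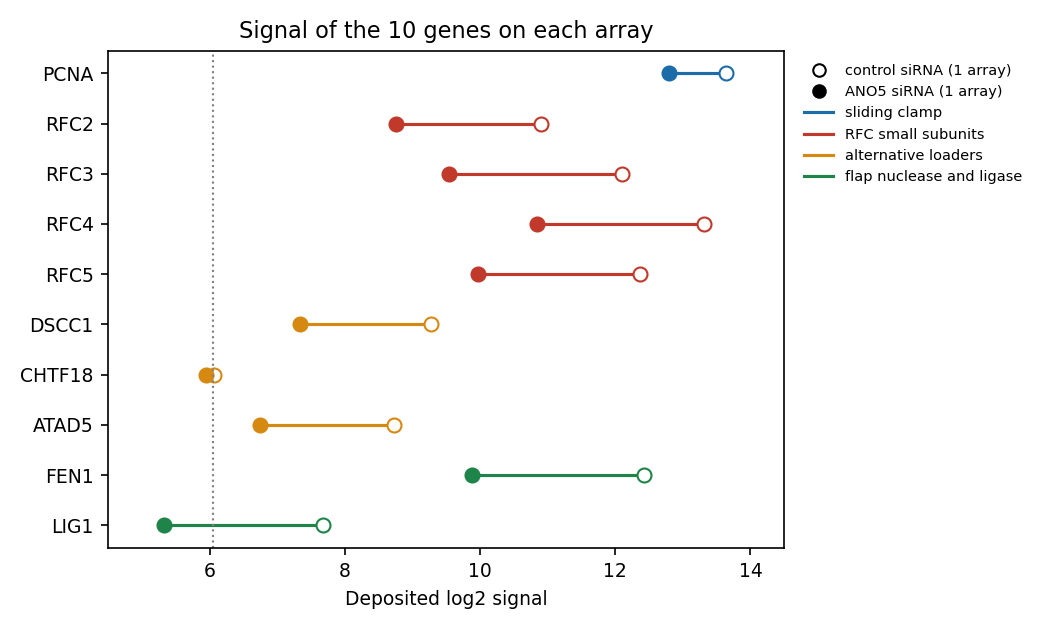
Deposited log2 signal (horizontal axis) of the 10 genes on the control siRNA array (open circles) and the ANO5 siRNA array (filled circles), 1 array each, coloured by role; the dotted line marks the lower end of the measured range of mean signal, 6.05. PCNA moves from 13.64 to 12.79, CHTF18 hardly moves, and the differences of the other 8 genes run from -2.56 to -1.93.

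PCNA itself read 13.64 on the control array and 12.79 on the ANO5 siRNA array. Its difference of -0.85 corresponds to a 1.80-fold lower signal. A difference at least as negative was seen for 14.0% of the measured genes, so the clamp lay well inside the spread of all genes.

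The 4 small subunits of the clamp loader were lower by much more. RFC2 read 10.90 on the control array and 8.76 on the ANO5 siRNA array, a difference of -2.14 (4.41-fold lower). RFC3 read 12.10 and 9.54, a difference of -2.56 (5.90-fold lower), the most negative of the 10. The remaining small subunits were lower by similar amounts. RFC4, at 13.31 and 10.84, differed by -2.47 (5.54-fold lower). RFC5, at 12.36 and 9.97, differed by -2.39 (5.24-fold lower). The 4 thus lay within 0.42 of each other, with a median of -2.43 and an SD over the 4 genes of 0.18. The SD of 0.94 over all measured genes spans rises and falls, so it does not show that this closeness is particular to RFC. FEN1 and LIG1 had an SD over genes of 0.13. Only 1.41% (RFC3) to 2.68% (RFC2) of the measured genes had a difference at least as negative.

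PCNA was therefore lower by less than its loader. The PCNA difference minus the median difference of RFC2 to RFC5 was 1.58, which is 2.99-fold in the ratio of the signals. Such a contrast within 1 pair of arrays shows unequal differences and does not depend on how the arrays are scaled to each other by a constant. No spread over cultures stands behind it.

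The proteins that give the alternative loaders their task were less alike. DSCC1, a subunit of the CTF18 loader, read 9.27 on the control array and 7.34 on the ANO5 siRNA array, a difference of -1.93 (3.81-fold lower). ATAD5, which unloads PCNA, read 8.73 and 6.74, a difference of -1.99 (3.97-fold lower). Both lay close to each other and somewhat above the small subunits, by 0.50 and 0.44. CHTF18, the large subunit of the CTF18 loader, read 6.07 and 5.94, a difference of -0.13 (1.09-fold lower). Its mean of 6.005 fell just below the measured range, and its control value lay at or above 36.0% of the clusters on that array. Whether background limits this difference was not tested. The median of the 3 was -1.93, and PCNA lay 1.08 above it, or 1.11 above the median of DSCC1 and ATAD5 alone.

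The enzymes of Okazaki fragment maturation were both lower. FEN1, the flap nuclease, read 12.42 on the control array and 9.88 on the ANO5 siRNA array, a difference of -2.54 (5.82-fold lower). LIG1, the ligase, read 7.68 and 5.33, a difference of -2.35 (5.10-fold lower). Both differences were inside the range of the 4 small RFC subunits on the deposited values, and PCNA lay 1.69 above FEN1 and 1.5 above LIG1. The ANO5 siRNA value of LIG1 lay at or above 28.7% of the clusters on its array. With a pseudocount of 32 on the linear signal, which shrinks the folds of dim genes, LIG1 was 3.28-fold lower, outside the range of those subunits, and PCNA lay 0.87 above it. The FEN1 difference minus that of LIG1 was -0.19 on the deposited values and -0.79 with this pseudocount.

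In order of difference the 10 genes ran RFC3, FEN1, RFC4, RFC5, LIG1, RFC2, ATAD5, DSCC1, PCNA and CHTF18. The first 8 spanned -2.56 to -1.93, and since no spread between cultures is known, neighbours among these 8 cannot be put in order. The widest steps were those from DSCC1 to PCNA (1.08) and from PCNA to CHTF18. When the measured genes were split by mean signal into 3 bands of nearly equal size, PCNA, RFC3, RFC4, RFC5 and FEN1 all lay in the brightest band, where 9.79% of genes were lower by 2-fold. RFC2 lay in the middle band (13.0%), and ATAD5, DSCC1 and LIG1 in the dimmest (11.2%). In RNA of whole cultures, fewer cells in S phase and less transcript per cell cannot be told apart.

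**Figure D2:**
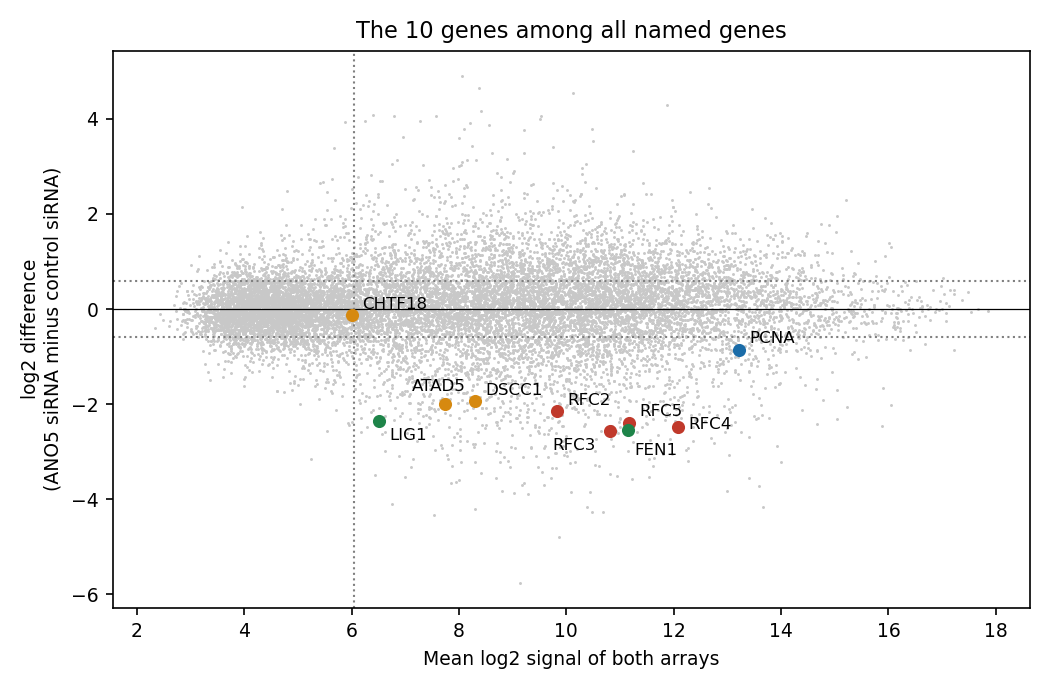
Difference between the arrays (ANO5 siRNA minus control siRNA, log2, vertical axis) against the mean log2 signal of both arrays for all named genes (grey) and the 10 genes (coloured by role as blue for the clamp, red for RFC subunits, orange for alternative loaders and green for FEN1 and LIG1); horizontal dotted lines mark 1.5-fold and the vertical one the lower end of the measured range. Among the bright genes on the right, PCNA at -0.85 sits above RFC4 at -2.47, and CHTF18 lies at the edge of the measured range.

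The subunits outside the 10 genes complete each loader. RFC1, the large subunit of canonical RFC, read 10.42 on the control array and 7.91 on the ANO5 siRNA array, a difference of -2.51 (5.70-fold lower). It differed from the median of the small subunits by -0.08, and the 5 subunits of canonical RFC together had a median of -2.47 and an SD over genes of 0.17. RAD17, the subunit that directs the loader to the checkpoint clamp, read 9.12 and 9.10, a difference of -0.02, which is 2.41 above the small subunits. CHTF8, the remaining subunit of the CTF18 loader, read 13.68 and 13.22, a difference of -0.46, within 1.5-fold. Of the CTF18 loader's own subunits, DSCC1 was 3.81-fold lower and CHTF8 lay within 1.5-fold. CHTF18 did too, but at a signal below the measured range.

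**Figure D3:**
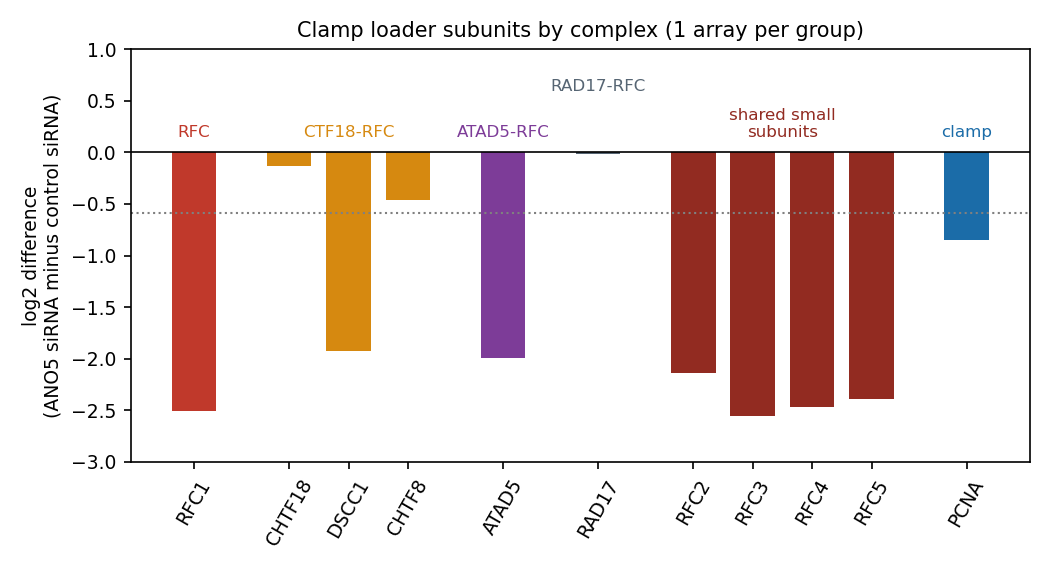
log2 difference (ANO5 siRNA minus control siRNA, 1 array each) of the subunit that defines each clamp loader, of the shared small subunits RFC2 to RFC5 and of the clamp PCNA; the dotted line marks 1.5-fold lower. RFC1 (-2.51) is level with the small subunits, DSCC1 and ATAD5 are near -2, and RAD17 (-0.02), CHTF18 (-0.13) and CHTF8 (-0.46) lie above the dotted line.

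Other genes of the pathway were followed as lists of 62 genes in all, of which 54 were in the measured range. Of these 54, 34 were lower and 5 higher by at least 1.5-fold, against 20.1% and 23.2% of the measured genes, with a median of -1.03. Without the filter, 34 of the 57 genes found on the arrays were lower, against 16.6% of all named genes. The shares of 20.1% and 23.2% also stand beside the counts of each list below. The checkpoint clamp (the 9-1-1 ring that RAD17 loads) with its partners had 4 of 5 measured genes lower and 0 higher, with a median of -1.17. RAD1 and RAD9A, parts of that ring, differed by -1.58 and -1.27, RHNO1, a partner of it, by -0.74, and HUS1, the remaining part, by 0.04.

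Among genes that remove primers and long flaps, 3 of 6 were lower and 0 higher, with a median of -0.49. RNASEH2A, the catalytic subunit of ribonuclease H2, was 5.35-fold lower and DNA2, a nuclease and helicase for long flaps, 3.92-fold lower. The helicase PIF1 and the ribonuclease RNASEH1 differed by 0.30 and 0.27. Of the nucleases related to FEN1, EXO1 differed by -2.43, close to FEN1, whereas GEN1, which cuts Holliday junctions, differed by -0.36 and ERCC5, the nuclease of nucleotide excision repair, by 0.36. Of the other DNA ligases, neither was lower by 1.5-fold. LIG3, with a function in base excision repair and mitochondria, differed by -0.33, and LIG4, the ligase of end joining, was 2.25-fold higher. XRCC1, the partner of LIG3, and PARP1, a sensor of DNA breaks, differed by -1.20 and -0.87. In that list 3 of 5 genes were lower and 1 higher, with a median of -0.80.

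The subunits of DNA polymerase delta, which PCNA holds on the lagging strand, went different ways. POLD3 read 11.24 on the control array and 9.13 on the ANO5 siRNA array (4.32-fold lower), POLD2 differed by -0.35, and POLD4, a small accessory subunit, was 2.11-fold higher. The fourth gene of that list was below the measured range. Replication protein A, which coats single-stranded DNA, was lower in all 3 measured subunits, at -2.10 for RPA1, -0.98 for RPA3 and -0.77 for RPA2.

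Of the enzymes that attach ubiquitin to PCNA or take it off, or otherwise act on the clamp, 5 of 9 were lower and 0 higher, with a median of -0.70. RAD18, the ligase that ubiquitinates PCNA, differed by -1.28, and HLTF, which extends that ubiquitin, and PARPBP, which binds modified PCNA, by -1.23 each. UBE2A, a conjugating enzyme that works with RAD18, and WDR48, a cofactor of deubiquitinases, differed by 0.52 and 0.38. Proteins that bind PCNA had 7 of 10 measured genes lower and 2 higher, against 20.1% and 23.2% of the measured genes, with a median of -1.29. CDT1, a licensing factor that is destroyed on PCNA, was 7.26-fold lower and UNG, a uracil glycosylase, 4.82-fold lower. Higher were CDKN1A (p21), an inhibitor that binds PCNA and CDKs, at 1.91-fold, and POLH, a translesion polymerase, at 1.53-fold. In cohesion establishment and fork protection 6 of 7 genes were lower and 1 higher, with a median of -2.19. Of these 6, 1 was in the measured range only through its control value. ESCO2 and CLSPN differed by -3.21 and -2.66, TIPIN by -1.31, and ESCO1, the other acetyltransferase of cohesin, was 1.88-fold higher.

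**Figure D4:**
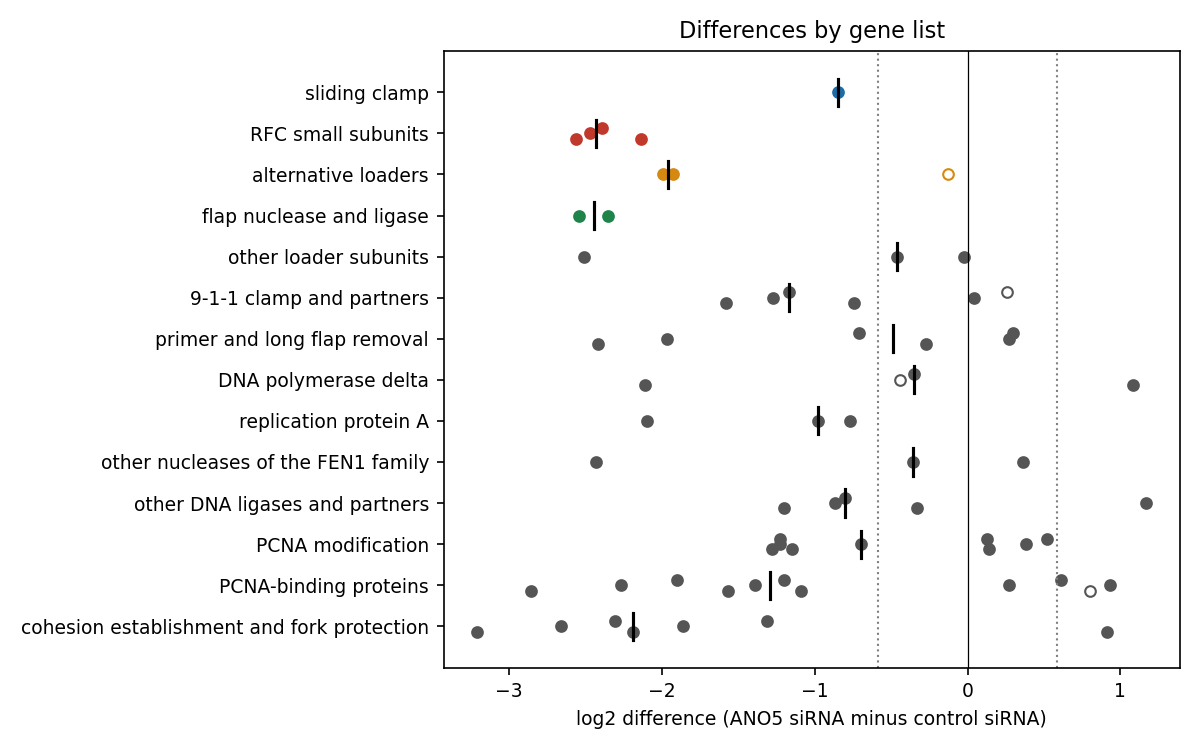
log2 difference (ANO5 siRNA minus control siRNA, 1 array each) of each gene in the 4 groups of the 10 genes (coloured) and in 10 lists of related genes (grey); filled circles are in the measured range, open circles below it, black bars are medians of the filled circles, and dotted lines mark 1.5-fold. The RFC subunits, FEN1 and LIG1 cluster near -2.4. PCNA at -0.85 falls among genes of PCNA modification, partners of the other ligases and replication protein A.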

How the data were processed

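RNA of 2 NUGC4 cultures, 1 per group, was measured on expression arrays. The authors deposited 1 value per array for 17345 transcript clusters, read here as log2 signal from their range, since the table names no unit. Agilent Feature Extraction 12.0.3.1 is listed in the submitters' processing notes, although the identifiers look like those of a different array maker. For background correction, normalization, log base and build, the sources used here say nothing. No detection call was used. The number of arrays limits the precision.

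Symbols came from the platform's annotation table, which gives 14544 clusters 1 symbol, 0 several and 2801 none. All 10 genes matched a RefSeq gene of the same symbol by Entrez identifier. Where several clusters shared a symbol (16 genes), the brightest by its mean over the arrays was kept. Values were used as deposited (array medians 7.69 and 7.68) and subtracted, without a test. The genes and lists were chosen with earlier results of these data known. Named were all 10 genes, ANO5, RFC1, CHTF8 and RAD17, and from each other list the 2 measured genes with the most negative and the 2 with the most positive difference, ties included. Markers and housekeeping genes served as checks. Listed genes not in the table are not analysed here.

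Alternatives were 4 scalings (median, 75th percentile, quantile, loess with a span of 0.4), the median over clusters, a pseudocount, and filters set at none or the 50th percentile. Promoter windows came from RefSeq. Python 3.11.15, numpy 2.4.6, pandas 2.3.3 and statsmodels 0.14.6 were used.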

Additional observations from a re-analysis of the deposited data

How the results depend on the processing

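Under the 4 scalings, the median over clusters and the pseudocount, each of the 10 genes kept its direction and its side of 1.5-fold. PCNA ranged from -0.96 to -0.84, RFC3 from -2.69 to -2.51, FEN1 from -2.67 to -2.50 and CHTF18 from -0.15 to -0.087. Of 116 values under alternatives, some could not move, so their agreement is no check. Each of the 10 genes has 1 cluster, so the median over clusters returned the deposited values. Scaling to the same median or upper percentile shifts an array by a constant and cannot change a contrast between genes. Of the 116, 3 moved by more than 1.5-fold, all under the pseudocount of 32, which by its construction shrinks differences of dim genes. LIG1 went from -2.35 to -1.71, the PCNA difference minus that of LIG1 from 1.5 to 0.87, and that of FEN1 minus LIG1, added after seeing the data, from -0.19 to -0.79. The PCNA difference minus the RFC2 to RFC5 median stayed between 1.55 and 1.62, which includes a median with RFC1 added after seeing the data. The PCNA difference minus the median of the alternative loaders ran from 0.87 under the pseudocount to 1.11 without CHTF18. The variant without CHTF18 was also added after seeing the data. The filter at the 50th percentile keeps 7 of the 10 genes and drops the dimmest, CHTF18, LIG1 and ATAD5. All 7 were lower by 1.5-fold, against 20.6% of the 7263 genes that pass this filter. By 2-fold 6 were lower, for which no share was taken under this filter. Agreement of scalings says nothing about other cultures. No paired analysis was possible because each group holds 1 array.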
